A study of Mus musculus with 6 samples.

Results

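The monocyte-recruiting CC chemokines and their receptor were followed through a healing cortical lesion as 9 genes, 8 ligands (Ccl2, Ccl7, Ccl8, Ccl12, Ccl3, Ccl4, Ccl6 and Ccl9) and 1 receptor (Ccr2), of 32285 features counted in every library. The genes were taken as a list of names, with earlier results of these data known. Nuclei came from dissected photothrombotic lesions, in which light and a dye close cortical vessels, and passed a DAPI sort ahead of droplet capture. The 6 libraries covered 3 conditions on day 7 and day 21 after injury (7 and 21 dpi). Ctrl mice were wild type. Tgfbr2-cKO mice carried floxed Tgfbr2, the type II TGFβ receptor, and a creER driven by Col1a2, a promoter of fibroblasts, and received tamoxifen. ADWA11 mice were wild type and received an antibody that blocks integrin αvβ8, which activates latent TGFβ, on the day of injury and weekly after it. Each library pooled 1 male and 1 female mouse that were processed together, so each condition and day was 1 library with no replicate. The differences below are therefore between 2 libraries, and no test was run: the 2 mice of a library, told apart by sex where given, shared its handling.

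CC chemokines are small secreted proteins that guide leukocytes along a concentration gradient. Ccl2, Ccl7 and Ccl12 bind Ccr2, the receptor through which inflammatory monocytes leave the marrow and enter injured tissue. Mouse Ccl8 belongs to the same family by sequence and is best known as a ligand of Ccr8. Ccl3 is a ligand of Ccr1, and Ccl3 and Ccl4 are both made early by activated microglia, macrophages and neutrophils. Ccl6 and Ccl9 are rodent ligands of Ccr1 that are made by myeloid cells. In injured brain, resident microglia and recruited macrophages are the usual sources of these ligands, and fibroblasts can make Ccl2 and Ccl7.

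The ligand genes lie on chromosome 11 of GRCm38 in 2 groups of neighbours. Ccl2 (ENSMUSG00000035385, chr11:82035571-82037453), Ccl7 (ENSMUSG00000035373, chr11:82045712-82047525), Ccl12 (ENSMUSG00000035352, chr11:82101845-82103400) and Ccl8 (ENSMUSG00000009185, chr11:82115185-82116799) are on the plus strand in that order. Ccl9 (ENSMUSG00000019122, chr11:83572919-83578636), Ccl6 (ENSMUSG00000018927, chr11:83587882-83593087) and Ccl3 (ENSMUSG00000000982, chr11:83647844-83649355) are on the minus strand, and Ccl4 (ENSMUSG00000018930, chr11:83662584-83664683) follows on the plus strand. Ccr2 (ENSMUSG00000049103, chr9:124101950-124113557) is on the plus strand of chromosome 9. Ccl2 overlaps the annotated gene Gm17268 and Ccl6 overlaps E230016K23Rik, so UMIs there could belong to either gene of a pair.

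RefSeq promoter windows of GRCm38.p6, the 250 bases before the annotated start, were available here for 6 of the 9 genes. Those of 2 neighbouring pairs, Ccl6 with Ccl9 and Ccl8 with Ccl12, are shown because of their UMIs in macrophage-like nuclei. With all libraries pooled, nuclei that held 1 member more often held a UMI of the other, as given below. Each window is written 5′ to 3′ on the strand of the gene, and capitals mark matches to the motifs searched.
Ccl6 (chr11:83593088-83593337, minus strand): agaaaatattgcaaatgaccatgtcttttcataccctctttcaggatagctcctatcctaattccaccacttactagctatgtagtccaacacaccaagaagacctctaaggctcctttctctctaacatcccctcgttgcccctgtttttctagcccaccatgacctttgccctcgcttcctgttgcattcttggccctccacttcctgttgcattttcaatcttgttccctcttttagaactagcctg
Ccl9 (chr11:83578637-83578886, minus strand): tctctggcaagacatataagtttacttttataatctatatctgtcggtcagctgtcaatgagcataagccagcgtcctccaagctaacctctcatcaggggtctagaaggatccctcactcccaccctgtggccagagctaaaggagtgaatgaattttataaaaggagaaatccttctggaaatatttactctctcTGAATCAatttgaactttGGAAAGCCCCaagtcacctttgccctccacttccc
Ccl12 (chr11:82101595-82101844, plus strand): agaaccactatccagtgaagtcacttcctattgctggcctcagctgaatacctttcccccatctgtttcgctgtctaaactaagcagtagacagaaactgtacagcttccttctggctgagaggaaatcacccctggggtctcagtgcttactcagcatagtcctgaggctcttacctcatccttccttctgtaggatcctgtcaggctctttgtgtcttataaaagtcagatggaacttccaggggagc
Ccl8 (chr11:82114935-82115184, plus strand): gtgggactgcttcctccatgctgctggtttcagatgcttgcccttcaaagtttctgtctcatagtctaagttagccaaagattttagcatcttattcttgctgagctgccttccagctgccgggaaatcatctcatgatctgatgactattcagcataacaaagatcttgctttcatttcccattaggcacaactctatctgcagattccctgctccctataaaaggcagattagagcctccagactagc
Both strands were searched for the gamma-activated site TTCNNNGAA, the core of the interferon-stimulated response element, the AP-1 site TGANTCA, the C/EBP site TTNNGCAA and the NF-κB site, which 7.02%, 2.98%, 6.75%, 9.56% and 7.25% of 32851 promoter windows held. Of the 6 member windows, the one of Ccl9 held matches, an AP-1 match from -53 to -47 and an NF-κB match from -35 to -26 counted from the start site. A match describes letters only, and the absence of one says only that these letters are not in this window.

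Libraries held between 7205 and 14246 barcodes and between 64798965 and 140310354 UMIs, and 61676 nuclei were analysed. Of 66803 distinct barcode sequences, 553 occurred in more than one library. Clusters named from markers gave 15105 macrophage-like, 6115 microglia-like, 17470 fibroblast-like and 1131 dendritic-like nuclei. Grouping each nucleus by its own marker UMIs instead put 48.65%, 56.26%, 45.4% and 57.91% of these in the same class. In the order Ctrl, ADWA11, Tgfbr2-cKO at 7 dpi and the same at 21 dpi, macrophage-like nuclei numbered 1933, 4794, 389, 1716, 5552 and 721. Microglia-like nuclei numbered 1749, 88, 1684, 1164, 24 and 1406, fibroblast-like nuclei 2486, 3008, 402, 6806, 3721 and 1047, and dendritic-like nuclei 210, 201, 38, 131, 477 and 74. The Tgfbr2-cKO library at 7 dpi stood apart with 6055 neuron-like nuclei against 136 in Ctrl. The summed level of 8 microglia markers was 1639 to 2531 CPM in microglia-like nuclei of the Ctrl and Tgfbr2-cKO libraries but 899 and 449 CPM in the 88 and 24 nuclei of the ADWA11 libraries, whose 12 macrophage markers summed to 7425 and 8211 CPM, as in macrophage-like nuclei. Ratios of those 2 small groups to Ctrl therefore compare unlike nuclei. At 7 dpi microglia-like nuclei were 21.2% of Ctrl and 0.807% of ADWA11 nuclei, and macrophage-like nuclei 23.5% and 43.9%. At 21 dpi the shares were 8.95% and 0.194%, and 13.2% and 44.9%. Whether macrophage-like nuclei of the ADWA11 libraries included microglia with low marker levels was not tested. Ratios in macrophage-like nuclei may thus also compare unlike nuclei. Tgfbr2 in fibroblast-like nuclei was 328 CPM in Ctrl, 252 CPM with ADWA11 and 245 CPM in Tgfbr2-cKO nuclei at 7 dpi, then 233, 201 and 191 CPM at 21 dpi. Whole-gene 3′ counts do not read the floxed exon, so this does not check the deletion.

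A level is given as CPM, the UMIs of a gene as a share of all non-mitochondrial UMIs of the nuclei summed, in parts per 10⁶, with an exact Poisson 95% interval. Differences are log2 ratios of CPM with an exact conditional binomial (Clopper-Pearson) 95% interval. A member was called higher or lower where the ratio was at least 2-fold, its interval left out 0 and the 2 libraries together held at least 20 UMIs. These intervals cover counting error only and are too narrow where a few nuclei hold most UMIs of a gene, and no p-value is given.

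Over all libraries the members fell into different cells. Ccr2 was highest in dendritic-like nuclei, at 640.1 (618 to 662) CPM, then in T or NK cell-like nuclei at 288 (276 to 299.8) CPM. It measured 22.4 (21.4 to 23.4) CPM in macrophage-like, 5.70 (4.89 to 6.61) CPM in microglia-like and 0.674 (0.534 to 0.839) CPM in neuron-like nuclei. B or plasma cell-like nuclei, at 51.2 (29.8 to 82.0) CPM, and neutrophil-like nuclei, at 29.2 (17.3 to 46.2) CPM, lay between the T or NK cell-like and macrophage-like nuclei, and the last of these overlapped in their intervals with the neutrophil-like nuclei. A Ccr2 UMI was seen in 58.2% of dendritic-like nuclei, 36.9% of T or NK cell-like nuclei and 5.95% of macrophage-like nuclei, at median depths of 3897, 2576 and 5259 UMIs, against 0.761% of neuron-like nuclei at 14794.5 UMIs. Thinned to 2000 UMIs per nucleus the shares were 49.1%, 32.5%, 3.21% and 0.162%.

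The ligands had other leading classes. Ccl3 and Ccl4 were highest in neutrophil-like nuclei, at 338 (293 to 387) and 487 (434 to 546) CPM, but these were 317 nuclei, and a single nucleus held 31.2% of the Ccl3 UMIs and 48.0% of the Ccl4 UMIs. In macrophage-like nuclei they were at 21.8 and 45.4 CPM and in microglia-like nuclei at 23.7 and 41.9 CPM. In each Ctrl and Tgfbr2-cKO library microglia-like nuclei were the higher for both genes. For Ccl4 at 7 dpi they were at 21.0 against 8.66 CPM in Ctrl and 67.4 against 20.7 CPM in Tgfbr2-cKO. For Ccl3 these were 17.8 against 6.94 CPM and 32.9 against 6.68 CPM. With ADWA11 the order differed by gene and day, with few microglia-like nuclei. Ccl6 was at 159 CPM in neutrophil-like, 102 (100.4 to 105) CPM in macrophage-like and 75.4 (68.1 to 83.3) CPM in dendritic-like nuclei. The Ccl6 order of the last pair differed between libraries, since dendritic-like nuclei were the higher at 7 dpi, at 15.0 against 6.85 CPM in Ctrl and 88.4 against 63.1 CPM with ADWA11, and the lower at 21 dpi with ADWA11, at 116 against 204 CPM. Ccl9 was at 55.6 (49.4 to 62.4) CPM in dendritic-like and 25.3 (24.3 to 26.4) CPM in macrophage-like nuclei, and dendritic-like nuclei were the higher in each of the 6 libraries. Ccl8 measured 72.6 (70.8 to 74.4) CPM in macrophage-like and 66.5 (59.6 to 73.9) CPM in dendritic-like nuclei, whose intervals overlapped. These classes were level with ADWA11 at 21 dpi, at 167.2 and 166.8 CPM, and macrophage-like nuclei were the higher in every other library. At 21 dpi they were at 37.7 against 8.32 CPM in Ctrl and 47.5 against 8.40 CPM in Tgfbr2-cKO. With ADWA11 at 7 dpi they were at 19.0 against 4.42 CPM. Ccl12 was at 21.2 (19.6 to 22.9) CPM in microglia-like and 12.3 (11.5 to 13.01) CPM in macrophage-like nuclei, an order that came from Tgfbr2-cKO at 7 dpi, at 51.5 against 17.6 CPM, whereas in Ctrl the intervals overlapped at each day and with ADWA11 no microglia-like UMI was counted. Ccl2 and Ccl7 were low, at 10.7 and 6.15 CPM in macrophage-like and 5.05 and 3.91 CPM in fibroblast-like nuclei.

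Where a gene's UMIs lay also depended on how many nuclei of a class a library held. Under ADWA11 at 21 dpi, macrophage-like nuclei held 84.7% of Ccl12, 83.1% of Ccl6, 78.2% of Ccl4 and 72.9% of Ccl8 UMIs. In Tgfbr2-cKO at 7 dpi, microglia-like nuclei held 55.5% of Ccl12, 58.1% of Ccl4 and 53.9% of Ccl3 UMIs, and in that library neuron-like nuclei held 24.8% of Ccl12 and 25.7% of Ccl3 UMIs. Ccl2 and Ccl7 UMIs lay mostly in macrophage-like and fibroblast-like nuclei with ADWA11, but in Tgfbr2-cKO at 7 dpi microglia-like nuclei held 31.4% of Ccl2 against 15.4% in macrophage-like nuclei. Fibroblast-like nuclei held 50% of Ccl7 UMIs in Ctrl, 45.4% with ADWA11 and 56.1% in Tgfbr2-cKO at 21 dpi, against 10.7%, 28.0% and 9.09% at 7 dpi. An unnamed sub-cluster of 1528 myeloid nuclei led by genes of dividing cells was in no class, and together with 232 osteoblast-like nuclei it held 25.7% of Ccl2 and 19.5% of Ccl9 UMIs with ADWA11 at 7 dpi.

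**Figure D1:**
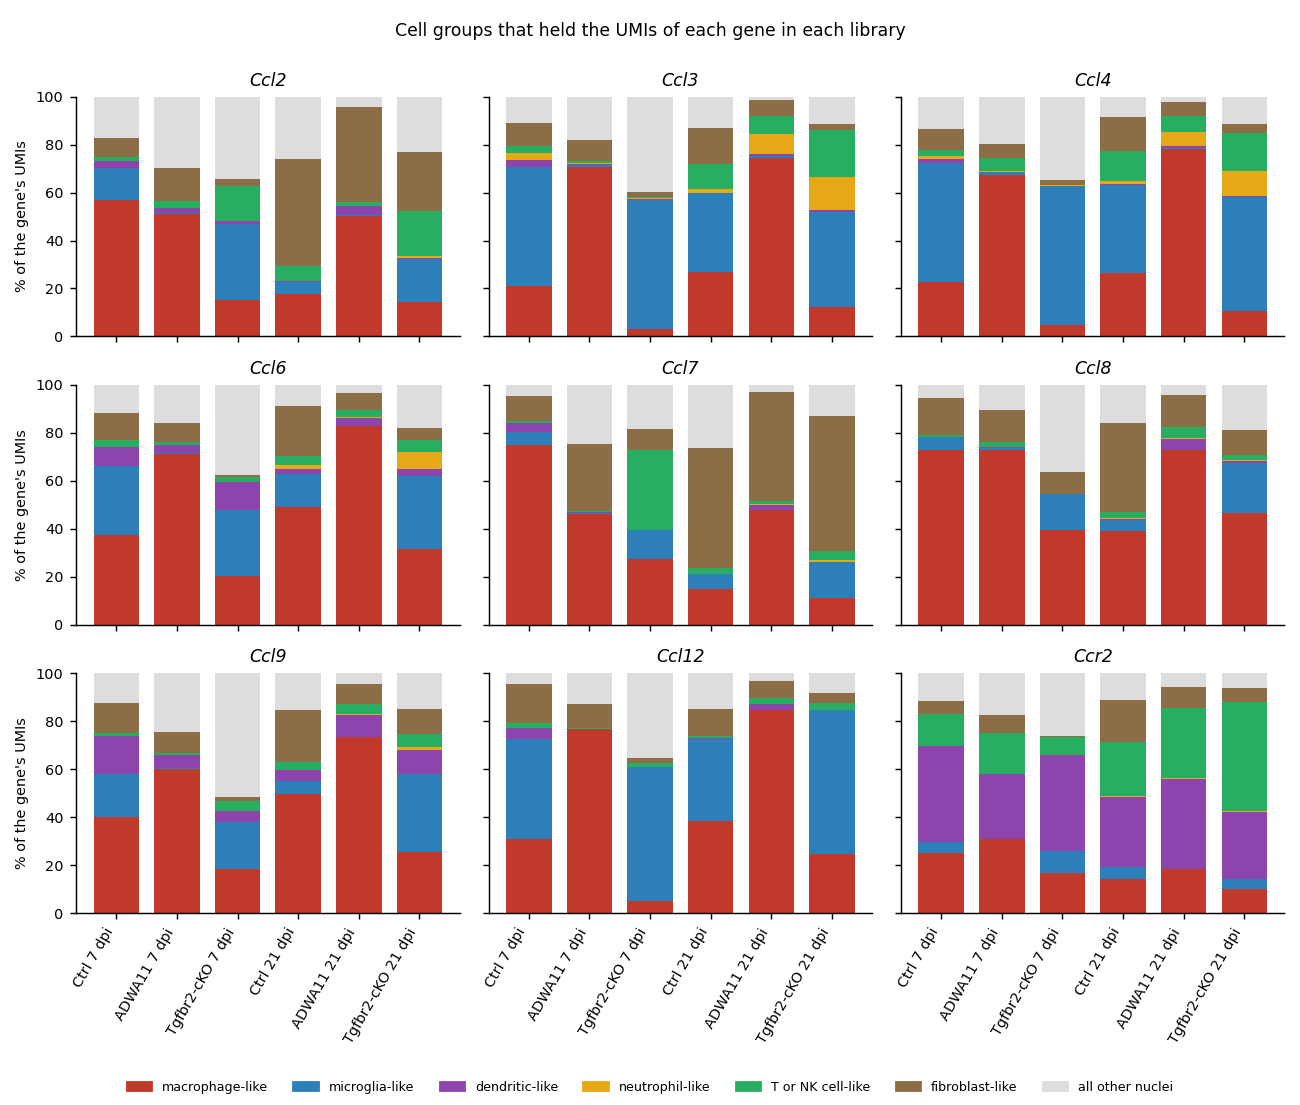
Share of each member's UMIs by group of nuclei, in percent, with 1 bar per library and grey for all other nuclei. Macrophage-like nuclei held 83.1% of Ccl6 UMIs with ADWA11 at 21 dpi, and dendritic-like nuclei held 37.7% of Ccr2 UMIs there.

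ADWA11 was compared with Ctrl first in macrophage-like nuclei, to ask how blockade of αvβ8 related to ligand levels. At 7 dpi, 5 of 9 members were called higher and 1 lower, against 6.95% and 4.01% of all genes tested. At 21 dpi, 6 of 9 were higher and 0 lower, against 3.16% and 7.86%. The median log2 ratio of the members was 1.35 at 7 dpi and 1.16 at 21 dpi, and that of all genes tested was 0.033 and -0.048.

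Ccl6 had the largest of these ratios. In macrophage-like nuclei Ccl6 measured 6.85 (5.40 to 8.58) CPM in Ctrl, 63.1 (60.4 to 65.8) CPM with ADWA11 and 13.4 (8.38 to 20.2) CPM in Tgfbr2-cKO nuclei at 7 dpi, then 44.7 (39.9 to 50.01), 204 (199 to 209) and 43.3 (37.2 to 50.2) CPM at 21 dpi. The ADWA11 library was the highest at each day. The log2 ratio to Ctrl was 3.20 (95% interval 2.87 to 3.55) at 7 dpi and 2.19 (95% interval 2.03 to 2.36) at 21 dpi. Female and male nuclei, each of 1 mouse, gave 65.9 and 62.6 CPM with ADWA11 and 8.87 and 4.76 CPM in Ctrl at 7 dpi, and 162 and 217 against 42.1 and 63.9 CPM at 21 dpi, so the mice did not overlap.

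Ccl9, the neighbour of Ccl6, measured 8.03 (6.45 to 9.88) CPM in Ctrl, 27.4 (25.7 to 29.3) CPM with ADWA11 and 11.5 (6.95 to 18.0) CPM in Tgfbr2-cKO nuclei at 7 dpi, then 16.8 (13.8 to 20.1), 33.7 (31.7 to 35.8) and 10.0 (7.21 to 13.6) CPM at 21 dpi. The ratios for ADWA11 were 1.77 (95% interval 1.46 to 2.10) and 1.01 (95% interval 0.73 to 1.30). At 21 dpi the second of these lay close to the 2-fold limit, and the mice were at 35.9 and 34.1 CPM with ADWA11 and 12.7 and 32.8 CPM in Ctrl. With all libraries pooled, a Ccl9 UMI was seen in 16.5% of macrophage-like nuclei that held a Ccl6 UMI and in 6.44% of those that did not. Median depths were 6333 and 4900 UMIs. Both genes were higher with ADWA11 than in Ctrl, so differences between libraries also enter these shares.

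Ccl3 and Ccl4, chemokines of early inflammation, were both higher. Ccl4 measured 8.66 (7.01 to 10.6) CPM in Ctrl, 25.6 (23.9 to 27.3) CPM with ADWA11 and 20.7 (14.3 to 28.9) CPM in Tgfbr2-cKO nuclei at 7 dpi, then 31.9 (27.8 to 36.4), 87.5 (84.3 to 90.8) and 19.1 (15.1 to 23.8) CPM at 21 dpi. Its ratios for ADWA11 were 1.56 (95% interval 1.26 to 1.88) and 1.46 (95% interval 1.26 to 1.66). Ccl3 measured 6.94, 17.7 and 6.68 CPM at 7 dpi and 15.4, 34.4 and 15.9 CPM at 21 dpi in the same order, with ratios of 1.35 (95% interval 1.00 to 1.71) and 1.16 (95% interval 0.87 to 1.46). At each day both ADWA11 mice lay above both Ctrl mice for Ccl4, at 56.4 and 97.0 against 30.1 and 37.3 CPM at 21 dpi.

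Ccl8 was called higher with ADWA11 at 21 dpi and not at 7 dpi. In macrophage-like nuclei it measured 10.0 (8.23 to 12.1) CPM in Ctrl, 19.0 (17.6 to 20.5) CPM with ADWA11 and 7.90 (4.21 to 13.5) CPM in Tgfbr2-cKO nuclei at 7 dpi, then 37.7 (33.3 to 42.6), 167 (163 to 172) and 47.5 (41.1 to 54.7) CPM at 21 dpi. At 7 dpi the ADWA11 ratio of 0.93 (95% interval 0.63 to 1.23) was under the 2-fold limit and the mice overlapped, with 27.7 and 8.73 CPM with ADWA11 and 9.34 and 11.1 CPM in Ctrl. At 21 dpi the ratio was 2.15 (95% interval 1.97 to 2.33), and both ADWA11 mice, at 95.3 and 189.8 CPM, lay above both Ctrl mice, at 38.2 and 27.1 CPM. The 5252 UMIs of that library lay in 1758 nuclei, and its 5 richest nuclei held 3.37% of them.

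The Ccr2 ligands Ccl12, Ccl2 and Ccl7 each behaved differently. Ccl12 in macrophage-like nuclei was higher with ADWA11 at 7 dpi, at 7.82 against 3.07 CPM (log2 ratio 1.35, 95% interval 0.83 to 1.91), and at 21 dpi the libraries were at 18.7 and 12.7 CPM (log2 ratio 0.56, 95% interval 0.23 to 0.90), under the 2-fold limit. The mice overlapped at 7 dpi, at 11.5 and 3.38 CPM with ADWA11 and 3.73 and 2.72 CPM in Ctrl. Ccl2 was at 9.17 against 8.84 CPM at 7 dpi and 13.5 against 8.74 CPM at 21 dpi, with ratios of 0.053 (95% interval -0.28 to 0.40) and 0.63 (95% interval 0.23 to 1.04). Ccl7 was lower with ADWA11 at 7 dpi, at 3.28 (2.70 to 3.95) against 7.58 (6.04 to 9.38) CPM (log2 ratio -1.21, 95% interval -1.63 to -0.78), and higher at 21 dpi, at 10.0 (8.95 to 11.2) against 2.48 (1.44 to 3.96) CPM (log2 ratio 2.02, 95% interval 1.32 to 2.82). At 21 dpi 9 of 5552 nuclei held 50% of the 315 Ccl7 UMIs and the 5 richest held 41.0%, and the ADWA11 mice were at 3.20 and 12.9 CPM against 1.96 and 4.53 CPM in Ctrl, which overlapped.

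Ccr2, the receptor, was called in neither direction. In macrophage-like nuclei it measured 33.6 (30.3 to 37.2) CPM in Ctrl, 17.4 (16.0 to 18.8) CPM with ADWA11 and 28.6 (21.0 to 38.0) CPM in Tgfbr2-cKO nuclei at 7 dpi, then 21.3 (18.0 to 25.0), 24.5 (22.8 to 26.2) and 16.7 (12.9 to 21.1) CPM at 21 dpi. The ADWA11 ratios were -0.95 (95% interval -1.14 to -0.76) and 0.20 (95% interval -0.055 to 0.47), neither past the 2-fold limit. Glial and vascular nuclei of the same libraries, described with the fibroblast-like nuclei below, were at 5.87, 2.48 and 1.79 CPM at 7 dpi and 5.99, 21.3 and 1.99 CPM at 21 dpi. The macrophage-like level with ADWA11 at 21 dpi was thus near that of nuclei not known for Ccr2, but its sub-clusters, described next, lay on both sides of it, with 8.41 (6.18 to 11.2) CPM in m3, 28.5 (26.2 to 30.9) CPM in m2 and 36.0 (29.9 to 43.1) CPM in m6.

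**Figure D2:**
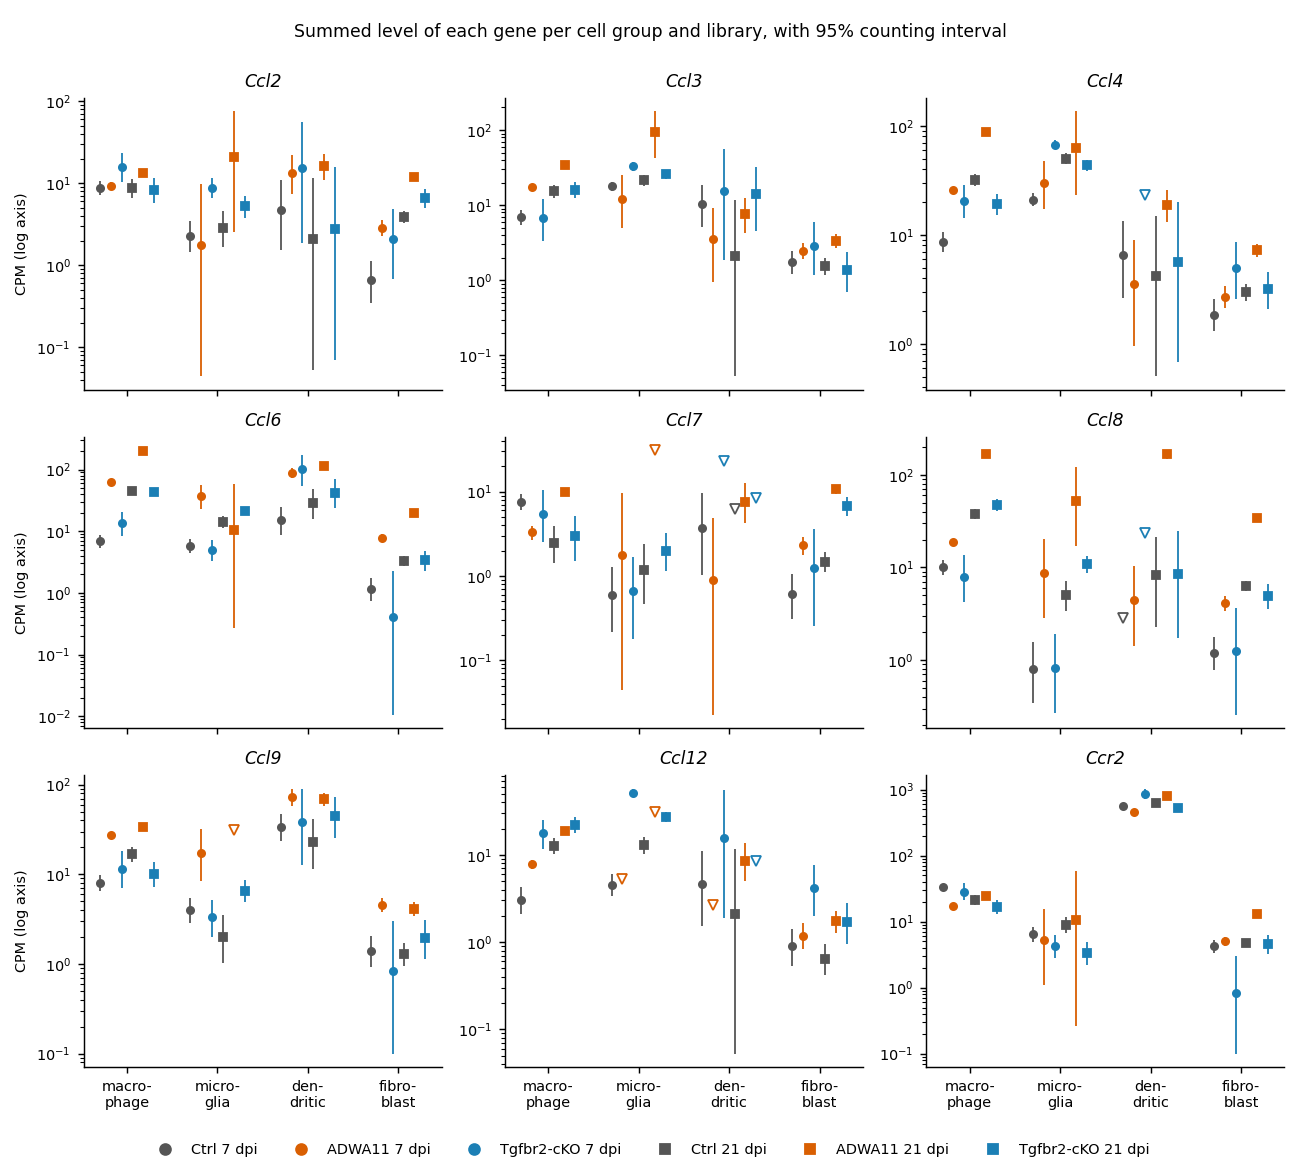
Levels of the 9 members in CPM on a log axis, by group of nuclei and library, with exact Poisson 95% intervals. Open triangles mark the floor of 3 UMIs where none was counted. Ccl6 in macrophage-like nuclei was at 6.85 CPM in Ctrl and 63.1 CPM with ADWA11 at 7 dpi.

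The macrophage-like class was made of sub-clusters that differed between libraries, and these were clustered without the member genes. Sub-cluster m0 (5225 nuclei) held 1602 of the 1933 Ctrl nuclei at 7 dpi, m3 (3820 nuclei) held 2576 of the 4794 ADWA11 nuclei at 7 dpi, and m2 (4036 nuclei) held 3485 of the 5552 ADWA11 nuclei at 21 dpi. Within m0 at 7 dpi, Ccl6 was at 6.21 (4.71 to 8.02) CPM in Ctrl and 84.7 (79.4 to 90.3) CPM with ADWA11, and Ccl9 was at 7.38 (5.74 to 9.34) and 28.2 (25.1 to 31.5) CPM. The Ccl6 difference was thus as large within 1 sub-cluster as in the class. Ccl8, not called in the class at 7 dpi, was at 0.642 (0.236 to 1.40) CPM in Ctrl and 7.84 (6.27 to 9.69) CPM with ADWA11 within m0. At that day Ccl8 was at 13.5 (4.39 to 31.6) and 14.8 (13.1 to 16.6) CPM in m3. In m6 it was at 122 and 153 CPM, and the intervals overlapped in both m3 and m6. Within m2 at 21 dpi, Ccl6 was at 77.7 (63.5 to 94.2) CPM in Ctrl and 224 (218 to 231) CPM with ADWA11, Ccl8 at 9.72 (5.17 to 16.6) and 92.5 (88.3 to 96.9) CPM, and Ccl4 at 23.9 (16.4 to 33.8) and 70.3 (66.6 to 74.1) CPM. Ccl12 there was at 1.49 (0.181 to 5.40) and 9.93 (8.59 to 11.4) CPM. Ccl2 was at 9.88 (8.54 to 11.4) CPM with ADWA11, and no UMI was counted in 269 Ctrl nuclei, which allows up to 2.76 CPM. In other sub-clusters at 21 dpi Ctrl was the higher, at 39.3 against 25.6 CPM for Ccl12 in m3 and 47.7 against 9.70 CPM for Ccl2 in m8. The difference of the class was not kept in every sub-cluster, for these members or others. Ccl6 at 21 dpi was at 92.2 (70.0 to 119.2) CPM in Ctrl and 131 (119.2 to 144) CPM with ADWA11 in m6. Ccl4 was at 112 (84.1 to 146) and 124 (109 to 140) CPM in m8 at 21 dpi. In m3 at 7 dpi Ccl4 was at 21.6 (9.34 to 42.6) and 25.8 (23.6 to 28.2) CPM. Each of these was under 2-fold. For Ccl3 at 21 dpi, Ctrl and ADWA11 were at 22.4 (15.1 to 32.0) and 29.4 (27.1 to 31.9) CPM in m2, at 28.0 and 31.7 CPM in m3 and at 39.4 and 48.0 CPM in m8, each under 2-fold with intervals that overlapped, and were far apart in m0, at 8.91 and 243 CPM, where 5 of 175 ADWA11 nuclei held 75% of the UMIs. At 7 dpi Ccl12 in Ctrl and ADWA11 was at 1.498 (0.819 to 2.51) and 2.19 (1.40 to 3.26) CPM in m0 and at 8.11 and 8.70 CPM in m3, under 2-fold in both, and at 19.5 (11.1 to 31.7) and 42.7 (33.5 to 53.6) CPM in m6. Ccl7 at 7 dpi was lower with ADWA11 within m0, at 4.65 (3.46 to 6.12) against 8.35 (6.60 to 10.4) CPM, also under 2-fold. Ccl9 was lower with ADWA11 than in Ctrl within m6, at 11.0 against 20.7 CPM at 7 dpi and 25.2 against 36.6 CPM at 21 dpi, and within m3 at 21 dpi, at 12.5 against 15.4 CPM, with overlapping intervals in each.

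Ccl8 and Ccl12 shared their leading macrophage-like sub-cluster. Sub-cluster m6, 1416 nuclei led within the myeloid set by Cd163 and Cbr2, genes of resident perivascular macrophages, and by the interferon-inducible genes Iigp1, Gbp2, Gbp4, Gbp5 and Tgtp2, had 415 (400 to 430) CPM of Ccl8 and 63.1 (57.4 to 69.2) CPM of Ccl12. The other macrophage-like sub-clusters ran from 7.96 to 80.2 CPM for Ccl8 and from 2.18 to 13.5 CPM for Ccl12. Within m6, Ccl8 was at 122 (99.2 to 148), 153 (135 to 172) and 46.1 (21.1 to 87.4) CPM for Ctrl, ADWA11 and then Tgfbr2-cKO at 7 dpi, and at 294 (253 to 339.6), 684 (657 to 713) and 282 (234 to 337) CPM at 21 dpi. The Ctrl and Tgfbr2-cKO intervals overlapped at 21 dpi, and the ADWA11 level lay above both. Ccl12 in m6 was at 19.5, 42.7 and 102 CPM at 7 dpi and 68.4, 72.6 and 130.3 CPM at 21 dpi, with 42 and 72 nuclei behind the Tgfbr2-cKO values. A Ccl12 UMI was seen in 10.7% of macrophage-like nuclei with a Ccl8 UMI and 2.38% of those without, at nearly equal median depths of 5373 and 5236 UMIs. These shares pool all libraries and sub-clusters, so the high levels of both genes in m6 also enter them. Sub-cluster m8, 608 nuclei led by Mmp12, a macrophage elastase, had over all libraries the highest Ccl9, at 57.7 (51.0 to 65.1) CPM, and Ccl4, at 92.5 (83.9 to 102) CPM, of the macrophage-like sub-clusters, with Ccl8 at 18.5 (14.8 to 22.9) CPM. In single libraries this order did not always hold, since in Ctrl at 7 dpi Ccl9 was at 5.41 CPM in m8 and 20.7 CPM in m6, and with ADWA11 at 21 dpi Ccl4 was at 124 CPM in m8 and 463 CPM in m0.

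**Figure D3:**
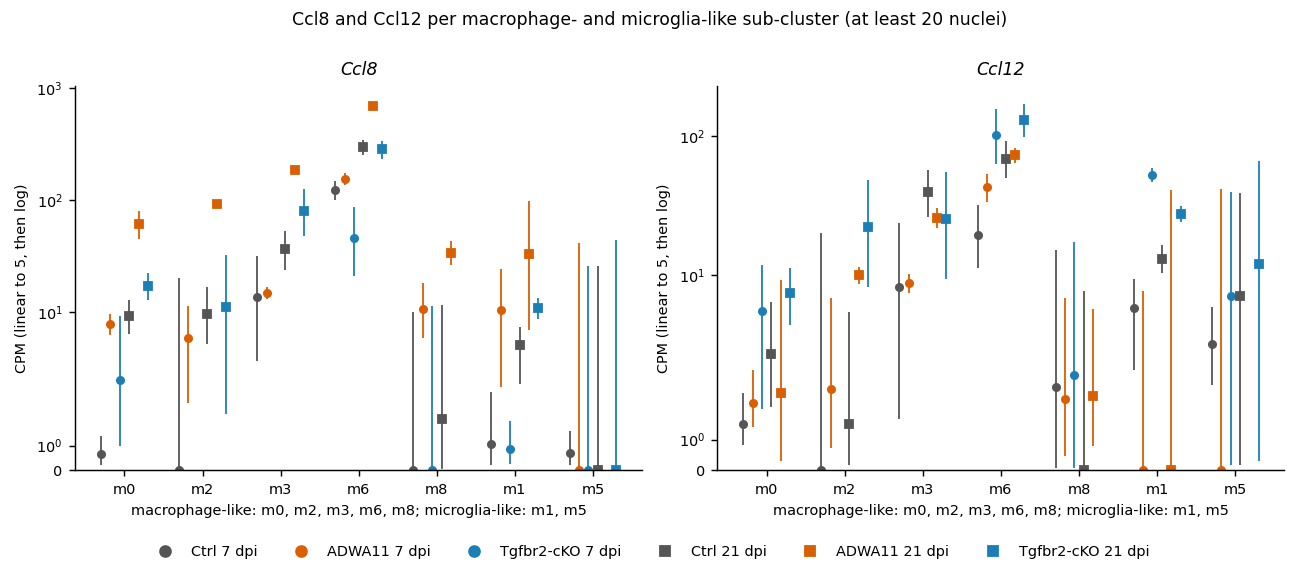
Ccl8 and Ccl12 in CPM by sub-cluster and library, for sub-clusters with at least 20 nuclei in a library, on an axis that is linear up to 5 CPM and logarithmic above. Sub-cluster m6 reached 684 CPM of Ccl8 with ADWA11 at 21 dpi, and microglia-like sub-cluster m1 reached 52.6 CPM of Ccl12 in Tgfbr2-cKO at 7 dpi.

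Tgfbr2-cKO was compared with Ctrl to ask how loss of the receptor in fibroblasts related to chemokines in the cells around them. In microglia-like nuclei, 3 of the 7 members with enough UMIs were called higher and 0 lower at 7 dpi, against 11.3% and 2.65% of all genes tested. At 21 dpi, 3 of 9 were higher and 1 lower, against 5.3% and 3.71%. In macrophage-like nuclei, 2 of 9 were higher and 0 lower at 7 dpi, against 7.38% and 1.88%, and 0 of 9 in either direction at 21 dpi, against 4.76% and 5.57%. The last count of 0 rests on the 2-fold rule, and the ratios there ran from -0.74 (95% interval -1.13 to -0.36) for Ccl4 to 0.80 (95% interval 0.36 to 1.24) for Ccl12.

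Ccl12 in microglia-like nuclei had the largest ratio of Tgfbr2-cKO to Ctrl among members in macrophage-, microglia-, fibroblast- and dendritic-like nuclei. It measured 4.55 (3.33 to 6.08) CPM in Ctrl and 51.5 (45.9 to 57.5) CPM in Tgfbr2-cKO nuclei at 7 dpi, then 12.8 (10.1 to 16.1) and 27.2 (23.7 to 31.1) CPM at 21 dpi. No Ccl12 UMI was counted in the 88 and 24 microglia-like nuclei of the ADWA11 libraries, which allows up to 5.24 and 31.3 CPM. The ratios for Tgfbr2-cKO were 3.50 (95% interval 3.05 to 3.98) at 7 dpi and 1.08 (95% interval 0.70 to 1.48) at 21 dpi. Female and male nuclei gave 53.3 and 42.7 CPM in Tgfbr2-cKO against 2.73 and 5.89 CPM in Ctrl at 7 dpi, and 21.8 and 37.4 against 14.6 and 12.4 CPM at 21 dpi, with no overlap at either day. At 7 dpi the 311 UMIs lay in 148 of 1684 nuclei, of which 31 held 50%.

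The microglia-like nuclei of the 2 libraries lay in different sub-clusters. Of the Ctrl nuclei at 7 dpi 1346 were in m5 and 403 in m1, and of the Tgfbr2-cKO nuclei 20 and 1664. Within m1, Ccl12 was at 5.73 (3.27 to 9.30) CPM in Ctrl and 52.6 (46.9 to 58.8) CPM in Tgfbr2-cKO, and the intervals were apart there too. The glial and vascular nuclei were at 0.130 and 5.25 CPM in these libraries, and the microglia-like level in Tgfbr2-cKO lay above the second.

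Ccl4 and Ccl2 were also higher in microglia-like nuclei of Tgfbr2-cKO at 7 dpi. Ccl4 was at 67.4 (61.0 to 74.3) against 21.0 (18.3 to 24.0) CPM (log2 ratio 1.68, 95% interval 1.44 to 1.93), with mice at 69.6 and 60.1 against 25.7 and 18.4 CPM. Ccl2 was at 8.77 (6.57 to 11.5) against 2.28 (1.44 to 3.42) CPM (log2 ratio 1.95, 95% interval 1.21 to 2.72), from 53 and 23 UMIs. Ccl3 was at 32.9 (28.5 to 37.9) against 17.8 (15.3 to 20.6) CPM (log2 ratio 0.89, 95% interval 0.59 to 1.19), under the 2-fold limit. In the glial and vascular nuclei the same ratios were 2.65 (95% interval 1.64 to 3.84) for Ccl4, 1.24 for Ccl3 and -0.00078 for Ccl2. Within m1, which held most of the Tgfbr2-cKO and the minority of the Ctrl nuclei, Ccl4 was at 68.3 (61.8 to 75.3) against 40.4 (33.3 to 48.6) CPM, under 2-fold, and Ctrl nuclei of m5 were at 13.6 CPM, so the call for Ccl4 in the class moved with its sub-clusters. Ccl2 in m1 was at 8.82 (6.58 to 11.6) against 2.86 (1.24 to 5.64) CPM. At 21 dpi none of these 3 was called, with Ccl4, Ccl2 and Ccl3 at -0.21 (95% interval -0.44 to 0.016), 0.88 (95% interval 0.036 to 1.79) and 0.26 (95% interval -0.067 to 0.59), and beside Ccl12 the called members were Ccl8 (10.8 against 5.00 CPM, log2 ratio 1.11, 95% interval 0.50 to 1.76), Ccl9 (6.58 against 2.00 CPM, log2 ratio 1.72, 95% interval 0.80 to 2.76) and, lower, Ccr2 (3.35 against 9.01 CPM, log2 ratio -1.42, 95% interval -2.15 to -0.73). The reference nuclei described with the fibroblast-like nuclei below had 1.99 against 5.99 CPM of Ccr2, a ratio of -1.59 (95% interval -2.25 to -0.96), and the microglia-like ratio was 0.56 in male nuclei, so this Ccr2 value is not read as a difference in microglia-like nuclei. For Ccl8, Ccl9 and Ccl12 the reference ratios were -0.84 (95% interval -1.34 to -0.35), -0.75 (95% interval -1.93 to 0.37) and -0.52 (95% interval -1.43 to 0.37). The microglia-like Ccl8 level in Ctrl lay under that of the reference, as given with the change over time below.

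In macrophage-like nuclei of Tgfbr2-cKO at 7 dpi the called members were Ccl12 and Ccl4. Ccl12 was at 17.6 (11.8 to 25.3) against 3.07 (2.12 to 4.28) CPM (log2 ratio 2.52, 95% interval 1.76 to 3.28), but it rested on 29 UMIs, of which 5 nuclei held 75.9%. The mice were at 19.0 and 15.3 CPM in Tgfbr2-cKO and 3.73 and 2.72 CPM in Ctrl. Ccl4 had a ratio of 1.25 (95% interval 0.65 to 1.83), and its Tgfbr2-cKO mice were at 39.3 and 6.82 CPM, on either side of the Ctrl mice at 9.10 and 9.06 CPM. In dendritic-like nuclei 1 of the 3 members with enough UMIs, Ccl6, was higher at 7 dpi and 0 lower, against 3.62% and 3.04% of all genes tested. It was at 101 (53.7 to 172) CPM in 38 Tgfbr2-cKO nuclei and 15.0 (8.58 to 24.4) CPM in Ctrl, and the 2 Tgfbr2-cKO mice were at 282 and 0 CPM, on either side of Ctrl. At 21 dpi 0 of 3 were called in either direction, against 3.99% and 3.87%.

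**Figure D4:**
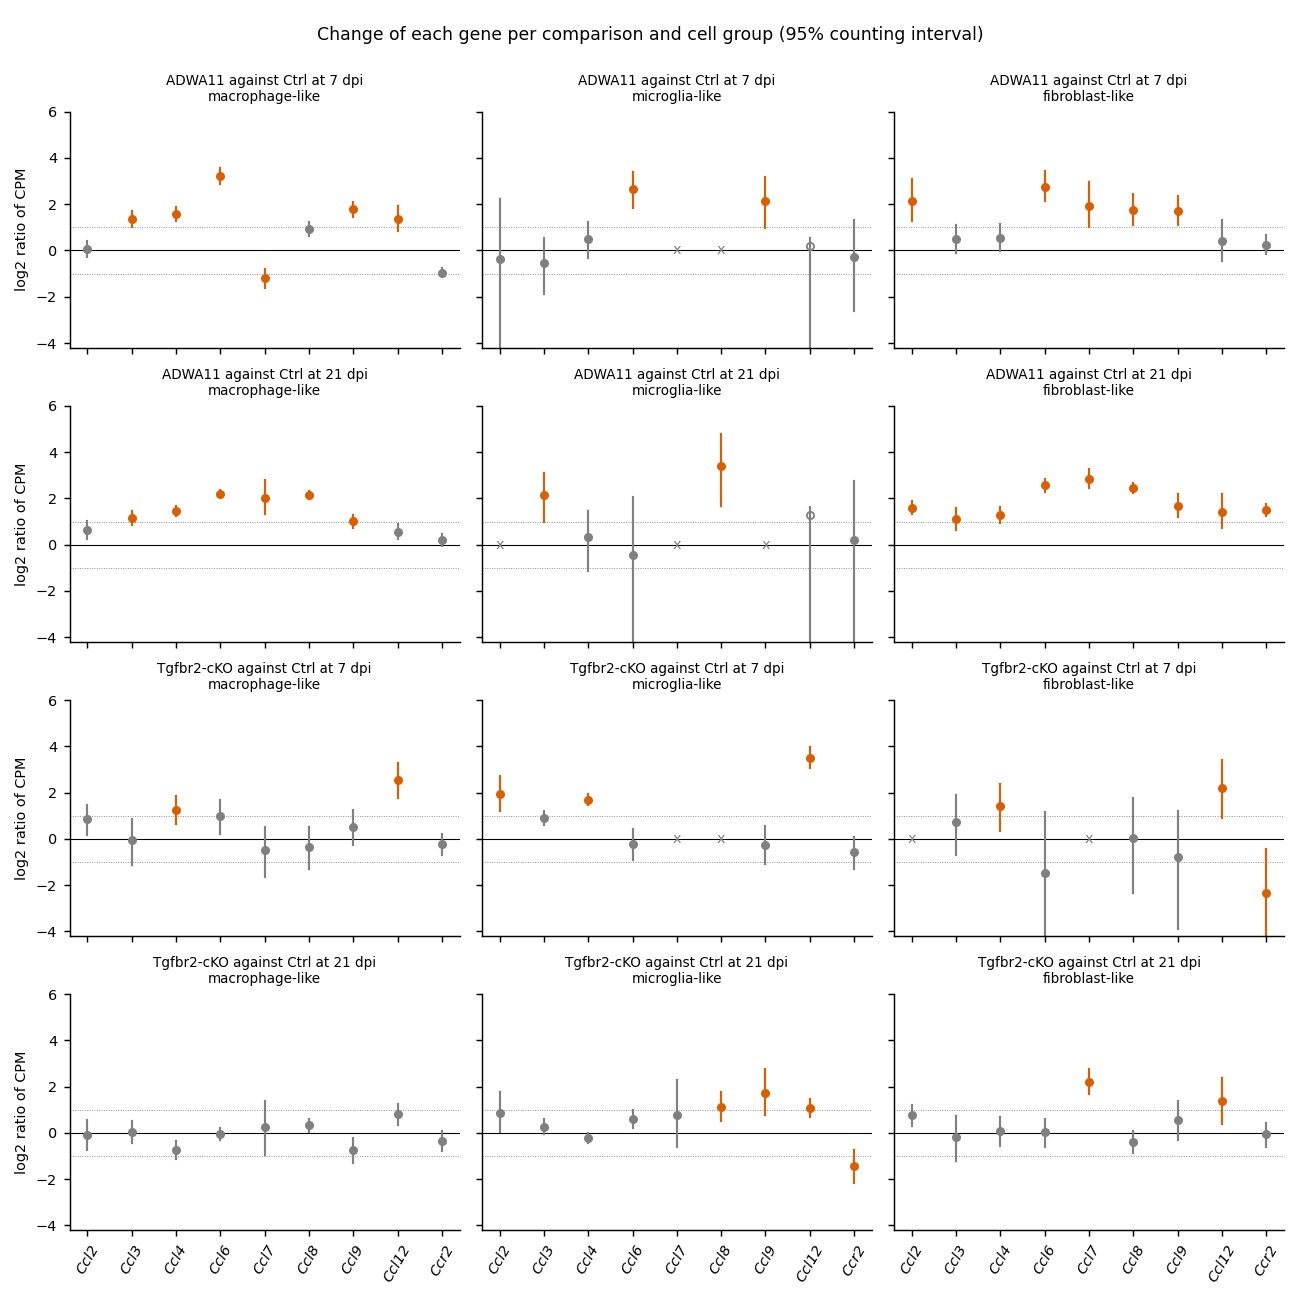
Log2 ratios of CPM for each member, group of nuclei and comparison, with exact conditional binomial 95% intervals cut at the axis limits. Orange marks called ratios, dotted lines mark 2-fold, open circles mark bounds against a library with no UMI and crosses mark members under 20 UMIs. Ccl12 in microglia-like nuclei of Tgfbr2-cKO at 7 dpi was at 3.50.

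With time in Ctrl lesions, 6 of 9 members were called higher and 1 lower in macrophage-like nuclei at 21 dpi compared with 7 dpi, against 9.26% and 2.15% of all genes tested. The median ratio of the members was 1.15 and that of all genes 0.087. Ccl6 (log2 ratio 2.71, 95% interval 2.34 to 3.09), Ccl12 (log2 ratio 2.05, 95% interval 1.46 to 2.66), Ccl8 (log2 ratio 1.91, 95% interval 1.59 to 2.25), Ccl4 (log2 ratio 1.88, 95% interval 1.53 to 2.24), Ccl3 (log2 ratio 1.15, 95% interval 0.72 to 1.60) and Ccl9 (log2 ratio 1.06, 95% interval 0.65 to 1.48) were the higher members and Ccl7 (log2 ratio -1.61, 95% interval -2.46 to -0.85) the lower one. Sub-cluster m0 held 1602 of the Ctrl macrophage-like nuclei at 7 dpi and 1040 at 21 dpi, and within it Ccl6 went from 6.21 to 22.4 CPM and Ccl4 from 6.10 to 27.3 CPM, but Ccl9 from 7.38 (5.74 to 9.34) to 7.83 (5.24 to 11.2) CPM and Ccl3 from 5.78 (4.34 to 7.54) to 8.91 (6.13 to 12.5) CPM, neither 2-fold. Of the 115 Ccl9 UMIs at 21 dpi, 36 lay in 3 nuclei of m8, and 1 nucleus held 33. In microglia-like nuclei 4 of the 8 members with enough UMIs were higher and 0 lower, against 9.53% and 3.26%. These were Ccl8 (log2 ratio 2.66, 95% interval 1.5 to 4.00), Ccl12 (log2 ratio 1.495, 95% interval 0.95 to 2.06), Ccl6 (log2 ratio 1.28, 95% interval 0.78 to 1.78) and Ccl4 (log2 ratio 1.26, 95% interval 1.00 to 1.52). The Ccl8 level at 21 dpi, 5.00 CPM, was under the 7.01 CPM of the glial and vascular nuclei, which were at 0.913 CPM at 7 dpi. The Ctrl microglia-like nuclei were 1346 in m5 and 403 in m1 at 7 dpi but 39 and 1125 at 21 dpi. Within m1, Ccl8 was at 1.07 (0.221 to 3.14) then 5.13 (3.46 to 7.32) CPM and Ccl12 at 5.73 (3.27 to 9.30) then 12.98 (10.2 to 16.3) CPM, with intervals apart. Ccl4, at 40.4 (33.3 to 48.6) then 50.7 (45.1 to 56.9) CPM, and Ccl6, at 7.52 (4.65 to 11.5) then 14.2 (11.3 to 17.6) CPM, were under 2-fold there with overlapping intervals. In dendritic-like nuclei 0 of 3 were called in either direction, against 5.62% and 3.06%. With 1 library per day, day and library cannot be told apart.

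Fibroblast-like nuclei had called ratios for every member with ADWA11 at 21 dpi, 9 of 9 higher and 0 lower, against 3.8% and 3.41% of all genes tested, although the Ccl12 ratio was -0.36 with groups from marker UMIs. At 7 dpi 5 of 9 were higher and 0 lower, against 6.22% and 3.15%. In Tgfbr2-cKO 2 of 7 were higher and 1 lower at 7 dpi, against 7.59% and 2.8%, and 2 of 9 higher and 0 lower at 21 dpi, against 8.27% and 6.24%. From 7 to 21 dpi in Ctrl 4 of 9 were higher and 0 lower, against 13.2% and 5.39%. These counts were set beside the level in glial and vascular nuclei, which are not the main source of these ligands but can make some of them, Ccl2 among them. Astrocyte-, oligodendrocyte-, precursor-, endothelial- and mural-like nuclei, 9711 in all, were taken as a reference. Its make-up differed between libraries. Astrocyte-like nuclei were 1190 of 2349 in Ctrl at 21 dpi, and precursor-like nuclei were 1018 of 1626 with ADWA11 at 7 dpi. In Tgfbr2-cKO at 7 dpi oligodendrocyte-like nuclei were 856 of 1780. Reference ratios between libraries may thus also compare unlike nuclei.

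With ADWA11 at 21 dpi, 6 of the 9 members were lower in fibroblast-like than in reference nuclei and Ccl3 was level with it, at 3.34 and 3.32 CPM. Under ADWA11 at 21 dpi Ccl6 was at 19.7 (18.1 to 21.4) CPM in fibroblast-like and 29.1 CPM in reference nuclei, Ccl8 at 34.3 (32.2 to 36.6) and 42.2 CPM, Ccr2 at 13.2 (11.9 to 14.6) and 21.3 CPM, and Ccl9 at 4.12 (3.40 to 4.94) and 6.63 CPM. The reference itself was higher with ADWA11 than in Ctrl at 21 dpi by 3.05 for Ccl6, 2.59 for Ccl8, 2.26 for Ccl9, 1.83 for Ccr2 and 1.35 for Ccl4. At 7 dpi the 5 members higher with ADWA11 were Ccl6, Ccl2, Ccl7, Ccl8 and Ccl9, at 2.76, 2.12, 1.93, 1.76 and 1.70. The reference had 2.72, 1.08, 1.38, 1.71 and 1.79. From 7 to 21 dpi in Ctrl the 4 higher members were Ccl2, Ccl8, Ccl6 and Ccl7, at 2.58, 2.39, 1.53 and 1.29. The reference had 2.92, 2.94, 1.43 and 2.39. In Tgfbr2-cKO at 7 dpi the members called higher were Ccl12, at 4.13 CPM against 5.25 CPM in the reference, and Ccl4, at 4.96 against 7.38 CPM. Whether fibroblast-like nuclei themselves held transcripts of Ccl3, Ccl4, Ccl6, Ccl8, Ccl9, Ccl12 and Ccr2 was not tested. A sub-cluster of 4107 shallow nuclei, led by fibroblast genes such as Mgp, Col1a1 and Lum against all nuclei but by leukocyte genes against other fibroblast-like nuclei, 37.9% of them called doublets, held 54.8% of the Ccl6, 46.8% of the Ccl8 and 42.5% of the Ccr2 UMIs of fibroblast-like nuclei in the ADWA11 library at 21 dpi. Without it, fibroblast-like levels there were 10.2 CPM for Ccl6, 20.9 CPM for Ccl8 and 8.69 CPM for Ccr2, and 11.0 CPM for Ccl7 and 11.6 CPM for Ccl2.

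Ccl7 and Ccl2 stood above the reference at 21 dpi in the ADWA11 and Tgfbr2-cKO libraries. Ccl7 measured 0.603 (0.311 to 1.05) CPM in Ctrl, 2.30 (1.79 to 2.92) CPM with ADWA11 and 1.24 (0.256 to 3.62) CPM in Tgfbr2-cKO nuclei at 7 dpi, then 1.47 (1.11 to 1.91), 10.6 (9.44 to 11.9) and 6.80 (5.19 to 8.76) CPM at 21 dpi. The reference nuclei were at 0.391, 1.02 and 0.224 CPM and at 2.05, 2.62 and 0.619 CPM. Fibroblast-like nuclei exceeded the reference by log2 ratios of 2.02 (1.27 to 2.87) with ADWA11 and 3.46 (2.44 to 4.66) in Tgfbr2-cKO at 21 dpi, and not in Ctrl, at -0.48 (-1.15 to 0.23). Against Ctrl, the fibroblast-like Ccl7 ratios were 1.93 (95% interval 1.04 to 2.95) and 2.85 (95% interval 2.44 to 3.29) for ADWA11 and 2.21 (95% interval 1.66 to 2.76) for Tgfbr2-cKO at 21 dpi. Both ADWA11 mice, at 8.14 and 10.6 CPM, lay above both Ctrl mice, at 1.02 and 1.57 CPM, and the Tgfbr2-cKO mice were at 1.96 and 11.2 CPM.

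Ccl2 in fibroblast-like nuclei measured 0.653 (0.348 to 1.12), 2.84 (2.27 to 3.52) and 2.07 (0.671 to 4.82) CPM at 7 dpi and 3.90 (3.30 to 4.57), 11.9 (10.6 to 13.2) and 6.58 (4.99 to 8.503) CPM at 21 dpi, in the order Ctrl, ADWA11, Tgfbr2-cKO. The ADWA11 ratios to Ctrl were 2.12 (95% interval 1.27 to 3.09) and 1.60 (95% interval 1.32 to 1.89). It exceeded the reference by 1.39 (0.81 to 2.02) with ADWA11 and 1.58 (0.93 to 2.25) in Tgfbr2-cKO at 21 dpi. In Ctrl at 21 dpi the reference was the higher of the pair, at 5.92 CPM, and astrocyte-like nuclei held 20.2% of the Ccl2 UMIs of that library. With all libraries pooled, a Ccl7 UMI was seen in 26.4% of fibroblast-like nuclei with a Ccl2 UMI and 0.918% of those without. Median depths were 8827.5 and 6783 UMIs, and differences between libraries and sub-clusters also enter these shares. In macrophage-like nuclei the shares were 17.8% and 1.19%.

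Within the fibroblast-like class at 21 dpi, sub-cluster f0 (2327 ADWA11 and 2011 Ctrl nuclei) held 202 of the 299 Ccl7 UMIs of the ADWA11 library. Ccl7 there was at 10.5 (9.09 to 12.04) CPM with ADWA11 and 0.607 (0.278 to 1.15) CPM in Ctrl. It reached 77.3 (59.0 to 99.5) and 9.53 (4.92 to 16.6) CPM in sub-cluster f4 (118 and 224 nuclei), from 60 and 12 UMIs. In f1 it was at 7.85 and 1.17 CPM. In f3, at 1.93 and 1.79 CPM, and in f6, at 0.662 and 0.372 CPM, the intervals overlapped. No Ccl7 UMI was counted with ADWA11 in f2 and f5, with 15 and 29 nuclei. Ccl2 did not differ in that way in f4, at 37.4 (25.0 to 53.7) and 38.1 (28.1 to 50.5) CPM, and in f0, the largest sub-cluster, it was at 12.7 (11.1 to 14.4) and 4.18 (3.21 to 5.36) CPM. In Tgfbr2-cKO Ccl7 was at 10.7 (7.52 to 14.9) CPM in sub-cluster f7, of whose 337 nuclei 320 came from that library. Ccl2 in f7 was at 13.7 (10.0 to 18.3) CPM there, from 46 of the 58 Ccl2 UMIs of fibroblast-like nuclei of that library. In the ADWA11 library at 21 dpi 22 of 3721 fibroblast-like nuclei held 50% of the 299 Ccl7 UMIs, and in Tgfbr2-cKO 7 of 1047 held 50% of 60.

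In dendritic-like nuclei with ADWA11, 2 of the 4 members with enough UMIs were called higher and 0 lower at 7 dpi, against 4.29% and 3.62% of all genes tested, and 5 of 6 higher and 0 lower at 21 dpi, against 2.53% and 4.26%. This class is named from dendritic markers but also carried monocyte markers, whose 6 genes summed to 214 CPM against 14.0 CPM in macrophage-like nuclei. Ccl8 was at 8.32 (2.27 to 21.3) CPM in Ctrl, 167 (149 to 186) CPM with ADWA11 and 8.40 (1.73 to 24.6) CPM in Tgfbr2-cKO at 21 dpi, a ratio of 4.33 (95% interval 2.96 to 6.21) for ADWA11. The 330 UMIs of the ADWA11 library lay in 91 of 477 nuclei, of which 7 held 50%, and the mice were at 152 and 175 CPM. Ccl6 was at 88.4 (71.9 to 107) against 15.0 (8.58 to 24.4) CPM at 7 dpi and 116 (102 to 132) against 29.1 (15.9 to 48.9) CPM at 21 dpi, with ratios of 2.56 (95% interval 1.79 to 3.42) and 2.00 (95% interval 1.22 to 2.89). Ccl9 was at 72.5 against 33.8 CPM and 68.8 against 22.9 CPM, with ratios of 1.10 (95% interval 0.52 to 1.71) and 1.59 (95% interval 0.70 to 2.62). The other called members at 21 dpi were Ccl4 (log2 ratio 2.17, 95% interval 0.21 to 5.27) and Ccl2 (log2 ratio 2.96, 95% interval 0.38 to 8.31). These rested on 2 and 1 UMIs in Ctrl, and the Ccl4 ratio was -0.14 with log-normalised clustering and -0.24 in female nuclei.

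Ccr2 in dendritic-like nuclei was high in every library. It measured 558 (514 to 605) CPM in Ctrl, 459 (420 to 499.8) CPM with ADWA11 and 861 (708 to 1037) CPM in Tgfbr2-cKO nuclei at 7 dpi, then 628 (559 to 703), 797 (758 to 837) and 529 (457 to 610.5) CPM at 21 dpi. No comparison with Ctrl passed the 2-fold limit, the ratios being -0.28 (95% interval -0.46 to -0.11) and 0.34 (95% interval 0.16 to 0.53) for ADWA11 and 0.63 (95% interval 0.32 to 0.92) and -0.25 (95% interval -0.52 to 0.02) for Tgfbr2-cKO. T or NK cell-like nuclei were at 292, 358 and 161 CPM at 7 dpi and 210.1, 314 and 238 CPM at 21 dpi. The classes with most Ccr2 held more nuclei with ADWA11 at 21 dpi, 477 dendritic-like against 131 in Ctrl and 1223 T or NK cell-like against 380, and there the whole library had 57.0 (55.3 to 58.8) CPM against 15.0 (14.1 to 15.9) CPM.

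**Figure D5:**
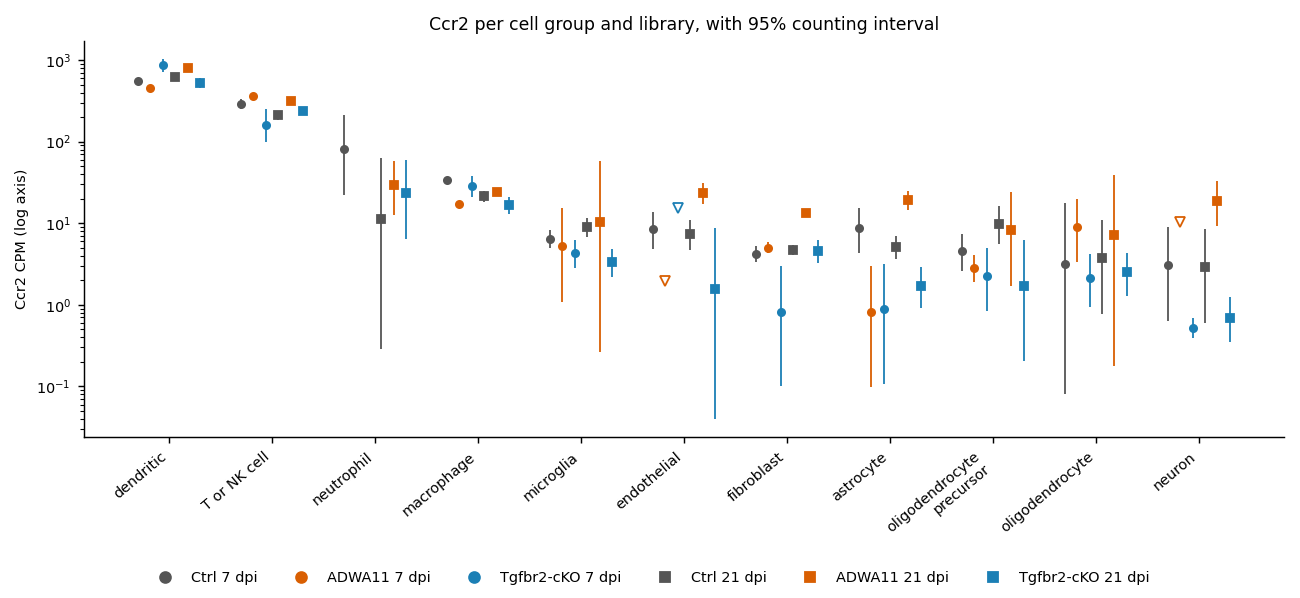
Ccr2 in CPM by class and library, for classes with at least 20 nuclei in a library, with exact Poisson 95% intervals. Dendritic-like nuclei lay between 459 and 861 CPM, above T or NK cell-like nuclei and far above macrophage-like nuclei in every library.

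The microglia-like nuclei of the ADWA11 libraries had 2 of 7 members higher and 0 lower than Ctrl at 7 dpi, against 7.57% and 4.48% of all genes tested, and 2 of 6 higher and 0 lower at 21 dpi, against 5.65% and 4.45%. Ccl6 was at 36.7 (22.7 to 56.1) CPM and Ccl9 at 17.5 (8.38 to 32.1) CPM in the 88 nuclei at 7 dpi. In the microglia-like nuclei of both ADWA11 libraries, the macrophage marker sums given above were as in macrophage-like nuclei. The microglia marker sums lay under those of the Ctrl and Tgfbr2-cKO libraries.

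In whole libraries, fewer cells of a type and less RNA per cell cannot be told apart. ADWA11 had 4 of 9 members higher and 0 lower than Ctrl at 7 dpi, against 6.18% and 4.53% of all genes tested, and 9 of 9 higher and 0 lower at 21 dpi, against 6.59% and 9.15%. Tgfbr2-cKO had 1 of 9 higher and 7 lower at 7 dpi, against 22.1% and 27.4%, and 1 of 9 higher and 0 lower at 21 dpi, against 14.8% and 8.44%. From 7 to 21 dpi in Ctrl 2 of 9 were higher and 0 lower, against 16.2% and 5.43%. The 7 lower members in Tgfbr2-cKO at 7 dpi moved when neural nuclei were left out, meaning neuron-, astrocyte-, oligodendrocyte- and oligodendrocyte precursor-like nuclei together. The 6055 neuron-like nuclei of that library were not left out alone. Without neural nuclei the log2 ratios were 1.56 for Ccl2, 1.54 for Ccl3, 0.69 for Ccl6, 0.0093 for Ccl7, 0.062 for Ccl9, -0.78 for Ccl8 and -0.73 for Ccr2. None of the 7 was then 2-fold lower. Ccl12 was the exception, at 4.65 (4.28 to 5.06) CPM against 2.02 (1.66 to 2.43) CPM (log2 ratio 1.21, 95% interval 0.91 to 1.52) in the whole library. The median ratio of all genes was -0.32 in that comparison.

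The other genes of the axis were read from lists, as counts of called genes among those with enough UMIs. Under ADWA11 at 21 dpi in macrophage-like nuclei, 4 of 12 inflammatory genes driven by NF-κB were higher and 0 lower, where 3.16% of all genes tested were higher and 7.86% lower, with Cxcl2, a neutrophil chemokine, at 16.8 against 1.60 CPM (log2 ratio 3.39) and Vcam1, an adhesion molecule, at 184 against 45.7 CPM (log2 ratio 2.01). Of 8 monocyte genes 5 were higher and 0 lower. Of 4 genes of the M-CSF and fractalkine pairs 0 were higher and 3 lower, with Cx3cr1, the fractalkine receptor, at 17.5 against 111 CPM (log2 ratio -2.66) and Csf1, which encodes M-CSF, at 11.1 against 43.0 CPM (log2 ratio -1.96). Of 5 other CC receptors and near ligands 1 was higher, Ccl5, at 8.95 against 2.33 CPM (log2 ratio 1.94). At 7 dpi Cx3cr1 was also lower, at 43.4 against 144 CPM (log2 ratio -1.73), and 4 of 11 NF-κB genes were higher and 1 lower, against 6.95% and 4.01% of all genes tested.

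In microglia-like nuclei of Tgfbr2-cKO at 7 dpi, Cxcl10, an interferon-induced chemokine, was at 26.2 against 0.792 CPM (log2 ratio 5.05) and was the 1 of 9 NF-κB genes called, against 11.3% of all genes tested higher and 2.65% lower. Ccl5, a chemokine that attracts T cells and monocytes, was at 10.9 against 0.891 CPM (log2 ratio 3.62), among 3 of 4 CC receptors and near ligands called higher and 0 lower, against the same 11.3% and 2.65%. At 21 dpi Cxcl10 was lower, at 0.497 against 6.84 CPM (log2 ratio -3.78), and 0 of 4 of the receptors and near ligands were called in either direction, against 5.3% and 3.71%.

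Across 61 sums of a class in a library with at least 50 nuclei, the genes whose log2 CPM was most like each member were named, as a description of classes and libraries that share depth and composition. For Ccr2 they were Gpr132 (Pearson r 0.918) and Map4k1 (0.896). For Ccl9 they were Clec4a3 (0.906), Clec4a1 (0.890) and Slamf8 (0.843), and for Ccl6 Ptafr (0.859), Psap (0.857) and Lilr4b (0.855). Ccl3 and Ccl4 shared their first 2, Cap1 (0.882 and 0.857) and E230032D23Rik (0.869 and 0.850). Ccl8 was most like Gm38134 (0.765) and Selenop (0.757), Ccl12 most like Ddx60 (0.657), Ccl2 most like Il7r (0.698) and Ccl7 most like Por (0.684).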

How the data were processed

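Nuclei were sorted on DAPI from dissected lesions and libraries were made with 10x 3′ chemistry. The deposited values are whole-number UMI counts per gene and barcode, which the authors made with Cell Ranger and the mm10 build. The file headers give version 7.2.0 and the submitters' processing notes 7.1.0. That software counts intronic reads, and the matrices hold called cells.

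All 67360 barcodes were read, and 61917 remained after leaving out the lowest and highest 2.5% of each library by UMIs and genes and the highest 2.5% by mitochondrial share. Median UMIs per kept nucleus ran from 4607 to 8462 and mitochondrial UMIs from 0.157% to 0.997%. Doublets were called from simulated pairs (5577 nuclei) and kept, except a sub-cluster of 241 nuclei of which 61.8% were called, which was left out. Counts were normalised with SCTransform (Seurat 5.3.0, sctransform 0.4.2), and 30 principal components of 3000 variable genes, all chemokine genes left out, were clustered at resolution 0.5, then at 0.2 for fibroblasts, 0.25 for myeloid nuclei and 0.5 for mixed leukocytes. A cluster was named where at least 3 markers of a class were raised. The naming rule, the reference nuclei and the alternative without the shallow fibroblast-like sub-cluster were set after the clusters were seen, and the members and gene lists were chosen with earlier results of these data known. The text names the 9 members, genes of 4 lists, and the genes most alike each member, of which 3 genes are not reported here.

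UMIs were summed over nuclei of a class and library and given as CPM with exact intervals (scipy 1.17.1). A library with 0 UMIs was set to a floor of 3 counts for ratios. Nuclei were assigned to the female or the male mouse by Xist and Y-linked UMIs. With 1 library per group no test across samples was run. The ratio and call rule was tested on simulated counts. Alternatives were log-normalised clustering, groups from marker UMIs, TMM scaling (edgeR 4.0.16), the mean over nuclei, removal of the 5 richest nuclei or of doublets, no UMI minimum, a filter over all libraries, either mouse alone and removal of neural nuclei. Promoter sequences came from RefSeq (GRCm38.p6) and positions from GENCODE.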

Additional observations from a re-analysis of the deposited data

Results flagged for a closer look

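Ccl7 had called ratios of opposite sign in several places. None of these differences was tested. In macrophage-like nuclei the log2 ratio of ADWA11 to Ctrl was -1.21 at 7 dpi and 2.02 at 21 dpi. At 7 dpi the same comparison gave -1.21 in macrophage-like nuclei and 1.93 in fibroblast-like nuclei. Within sub-cluster m0, which held 1602 Ctrl and 1562 ADWA11 nuclei at 7 dpi, Ccl7 was at 4.65 CPM with ADWA11 against 8.35 CPM in Ctrl, under 2-fold. From 7 to 21 dpi in Ctrl the ratio was -1.61 in macrophage-like nuclei and 1.29 in fibroblast-like nuclei. The fibroblast-like level in Ctrl at 21 dpi, 1.47 CPM, was under the 2.05 CPM of the glial and vascular reference nuclei, which were at 0.391 CPM at 7 dpi, so it is at the level of that reference. In macrophage-like nuclei the change from 7 to 21 dpi was -1.61 in Ctrl and 1.61 with ADWA11. Each value has an interval that leaves out 0, but 2 of them turned sign in female nuclei alone, to -0.22 for the change in fibroblast-like nuclei of Ctrl and to -0.36 for the change in macrophage-like nuclei with ADWA11, so the opposite signs of the last 2 pairs did not hold in both mice. The 2 comparisons at 7 and 21 dpi use different Ctrl libraries, and the day comparison in Ctrl uses both of them.

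The UMIs behind the ADWA11 value at 21 dpi were concentrated. Sub-cluster m0, with 175 nuclei in that library, was at 128 CPM of Ccl7, 119 CPM of Ccl2 and 463 CPM of Ccl4, and its 5 richest nuclei held 97.0%, 89.4% and 67.2% of those UMIs. In the female and the male nuclei alone the ADWA11 ratio at 21 dpi was 0.71 and 1.51.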

How the results depend on the processing

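No paired analysis was possible because the values come from no test, each condition and day being 1 library whose 2 mice shared it. Each of 92 called ratios was recomputed under the alternatives that touch it, and 1 (dendritic-like Ccl2) could not be computed in female nuclei. Their direction was kept in all 92 with TMM scaling, the mean over nuclei and no UMI minimum, in 47 of 47 without the shallow fibroblast-like sub-cluster (chosen after seeing the data), and in all but those named here. Ratios no longer called numbered 3 with TMM scaling, 11 with the mean over nuclei, 5 without doublets, 7 of 24 without neural nuclei, 3 of 47 without the sub-cluster, 14 with log-normalised clustering, 18 with groups from marker UMIs, 13 without the 5 richest nuclei, 9 with the filter over all libraries, 26 in female and 28 in male nuclei alone.

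Called values were also counted over 5 levels, the whole library and the 4 classes within it. UMIs of a class are thus in its whole library too, and no share of all genes is given for these counts. Fewer nuclei also leave fewer UMIs, so a member can lose its call by falling under 20 UMIs. Tgfbr2-cKO at 7 dpi had 35 values with enough UMIs, of which 9 were higher and 8 lower. Of the lower ones, 7 were in the whole library. The 9 higher values became 4 with groups from marker UMIs, without the 5 richest nuclei or in male nuclei. The 8 lower values became 13 with marker UMIs but 1 without neural nuclei. At 21 dpi, of 39 values with enough UMIs, the 6 higher ones became 2 in female nuclei. The 1 lower value became 3 with log-normalised clustering or in male nuclei, 4 without the 5 richest nuclei or in female nuclei, and 2 with marker UMIs, the filter over all libraries or no shallow sub-cluster. For ADWA11 the 1 lower value of 38 at 7 dpi became 2 with log-normalised clustering or without the 5 richest nuclei. The 31 higher values of 39 at 21 dpi became 18 in female nuclei. Between days in Ctrl 1 value of 38 was lower. It became 2 with marker UMIs, TMM scaling, the mean over nuclei, no 5 richest nuclei or no shallow sub-cluster. In male nuclei 4 values were lower.

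Signs turned as follows. Without neural nuclei the whole-library Tgfbr2-cKO ratios at 7 dpi were 1.56 for Ccl2, 1.54 for Ccl3, 0.69 for Ccl6, 0.0093 for Ccl7 and 0.062 for Ccl9. In the same comparison Ccl4 in macrophage-like nuclei was -0.29 without the 5 richest nuclei and -0.41 in male nuclei, and in fibroblast-like nuclei -0.80 with log-normalised clustering, -0.22 with marker UMIs and -1.18 without doublets. Ccr2 in fibroblast-like nuclei was 0.13 with the filter over all libraries, and Ccl6 in dendritic-like nuclei -1.72 with marker UMIs. Ccr2 in microglia-like nuclei of Tgfbr2-cKO at 21 dpi was 0.56 in male nuclei. With ADWA11 at 7 dpi, microglia-like Ccl6 was -1.37 with log-normalised clustering and Ccl9 -0.51 in female nuclei. At 21 dpi, microglia-like Ccl3 was -0.59 without the 5 richest nuclei, fibroblast-like Ccl12 -0.36 with marker UMIs, and dendritic-like Ccl4 -0.14 with log-normalised clustering and -0.24 in female nuclei. In female nuclei Ccl7 between days was -0.22 in fibroblast-like nuclei of Ctrl and -0.36 in macrophage-like nuclei with ADWA11. The cause was not tested where the setting itself does not show it. The minimum of 20 UMIs left 3 to 6 of 9 members to compare in dendritic-like nuclei.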
